A study of Rattus norvegicus with 38 samples.

Results

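The genes described here are 7 genes of the cell division cycle, Mki67, Top2a, Cdk1, Ccnb1, Pcna, Ccnd1 and Cdkn1a, in the kidneys of 38 rats. They were picked by their Ensembl identifiers, and all 7 were found among the 30207 genes of the expression table. The identifiers, in the same order, are ENSRNOG00000028137, ENSRNOG00000053047, ENSRNOG00000000632, ENSRNOG00000058539, ENSRNOG00000021264, ENSRNOG00000020918 and ENSRNOG00000000521. Of these genes, 6 were abundant enough to be among the 12599 genes tested. Cdkn1a lay under the limit on low values and was read from a fit without that limit.

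Rats were treated for 7 weeks with L-NAME, which inhibits nitric oxide synthase, with anti-Fx1A, an antiserum to proximal tubule brush border that induces Heymann nephritis, or with both. The combination was given to 10 animals, with anti-Fx1A at 2.0 mL/kg and L-NAME at 20 mg/kg per day. A further 10 animals received L-NAME alone at the dose of 20 mg/kg per day, 10 received anti-Fx1A alone at 2.5 mL/kg, and 8 received vehicle. The antiserum dose was therefore lower in the combination than in the animals given anti-Fx1A alone, and these effects cannot be told apart in comparisons with that group. The labels used here state no strain, sex or age. Animals are numbered 1 to 38 in the order of the groups, starting with vehicle, so order or batch and treatment cannot be told apart.

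RNA of the kidney was sequenced from the 3′ ends of transcripts, at 4120902 to 7728848 reads per library. Levels are the deposited log2 values, which are scaled for library size and variance-stabilised, and the lowest value stands for 0 reads. Reads recovered from these values are given beside them, and reads per 1000000 are abbreviated RPM. The 10 most abundant genes took 21.1 to 37.5% of reads in the combination, 21.9 to 34.8% with L-NAME, 18.2 to 38.4% with anti-Fx1A and 28.1 to 32.99% with vehicle. In bulk tissue, fewer cells of a type and less RNA per cell cannot be told apart, and the same holds for more cells and more RNA per cell.

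A cell that enters division raises cyclin D in G1, copies its DNA in S phase and divides in M phase, with each step driven by a cyclin bound to its kinase. The genes of G2 and mitosis are switched on late in the cycle. Many of them hold CHR elements, bound by the DREAM complex that keeps them off in resting cells, and CCAAT elements, bound by NF-Y, near their start sites. The adult kidney divides little at rest, and its tubule cells can re-enter the cycle after injury. p21, the product of Cdkn1a, is a target of p53 that inhibits cyclin-dependent kinases and stops the cycle.

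The DNA before the start site of each gene is shown because these elements are the known link between the late cycle genes. RefSeq (GRCr8) held a start-site sequence for 6 of the 7 genes, all but Ccnd1. The 250 bases before each start follow, 5′ to 3′ on the strand of the gene. They lie at chr1:199952594-199952843 on the minus strand (Mki67), chr10:84473094-84473343 on the minus strand (Top2a), chr20:19265043-19265292 on the plus strand (Cdk1), chr2:33655226-33655475 on the minus strand (Ccnb1), chr3:139955821-139956070 on the minus strand (Pcna) and chr20:7150682-7150931 on the plus strand (Cdkn1a). Capitals mark, on either strand, the CHR element TTTGAA, its relatives TTTAAA or else TTCGAA, and the element CCAAT, and in Cdkn1a a match to the p53 element.
Mki67: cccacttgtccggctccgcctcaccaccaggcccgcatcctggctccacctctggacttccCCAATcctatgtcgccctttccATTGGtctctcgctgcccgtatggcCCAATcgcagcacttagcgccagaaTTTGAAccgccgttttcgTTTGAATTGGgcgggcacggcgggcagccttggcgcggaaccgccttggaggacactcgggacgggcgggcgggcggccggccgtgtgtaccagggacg
Top2a: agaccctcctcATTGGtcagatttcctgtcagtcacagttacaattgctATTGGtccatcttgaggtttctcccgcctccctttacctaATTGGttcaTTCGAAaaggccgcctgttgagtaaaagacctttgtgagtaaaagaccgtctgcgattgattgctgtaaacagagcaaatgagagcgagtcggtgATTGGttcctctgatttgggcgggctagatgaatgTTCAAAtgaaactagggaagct
Cdk1: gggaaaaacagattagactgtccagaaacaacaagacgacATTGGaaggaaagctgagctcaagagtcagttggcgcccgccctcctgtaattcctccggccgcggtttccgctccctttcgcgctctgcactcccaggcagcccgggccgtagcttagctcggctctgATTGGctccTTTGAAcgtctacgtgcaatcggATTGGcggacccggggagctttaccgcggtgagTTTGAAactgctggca
Ccnb1: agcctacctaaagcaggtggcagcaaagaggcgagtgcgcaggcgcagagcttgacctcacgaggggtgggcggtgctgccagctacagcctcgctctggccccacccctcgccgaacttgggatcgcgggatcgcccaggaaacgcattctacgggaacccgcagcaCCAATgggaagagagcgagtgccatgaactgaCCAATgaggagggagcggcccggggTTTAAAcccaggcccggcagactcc
Pcna: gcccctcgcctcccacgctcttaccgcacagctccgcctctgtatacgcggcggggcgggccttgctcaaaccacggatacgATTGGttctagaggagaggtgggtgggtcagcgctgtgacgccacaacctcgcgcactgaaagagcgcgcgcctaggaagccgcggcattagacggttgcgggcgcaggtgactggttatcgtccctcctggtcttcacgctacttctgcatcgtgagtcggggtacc
Cdkn1a: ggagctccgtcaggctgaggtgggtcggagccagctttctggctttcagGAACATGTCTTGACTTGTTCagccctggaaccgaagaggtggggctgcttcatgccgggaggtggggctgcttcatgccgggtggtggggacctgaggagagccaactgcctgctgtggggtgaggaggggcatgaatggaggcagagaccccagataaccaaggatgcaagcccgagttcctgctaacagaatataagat

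The CHR element was searched as TTTGAA on both strands. It stood in the windows of Mki67 (starting 117 and 99 bases before the start), Cdk1 (72 and 16 bases) and Top2a (22 bases). Of all 33469 RefSeq windows of this length, 16.2% held it. Ccnb1 had none, but held the related TTTAAA 25 bases before its start, found in 12.3% of windows, and Top2a also held TTCGAA at 152 bases, found in 1.4%. CCAAT was found in 4 places in Mki67, 4 in Top2a, 3 in Cdk1, 2 in Ccnb1 and 1 in Pcna, and in 34% of all windows. One CCAAT of Mki67 overlapped its TTTGAA by 1 base. Both TTTGAA and CCAAT stood in 5.87% of all windows, and among the 6 genes in Mki67, Top2a and Cdk1.

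A match to E2F sites, searched as TTTCCCGC, TTTCGCGC, TTTGCCGC and TTTGGCGC on both strands, stood 133 bases before the start of Cdk1 alone, and in 1.73% of all windows. The Cdkn1a window held none of the elements above. It held a 20-base match to the full p53 element, with 1 base off, starting 201 bases before the start, which 20 of all windows (0.0598%) held. No match says only that these letters are not in this window, and a match is not a measured site.

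**Figure D1:**
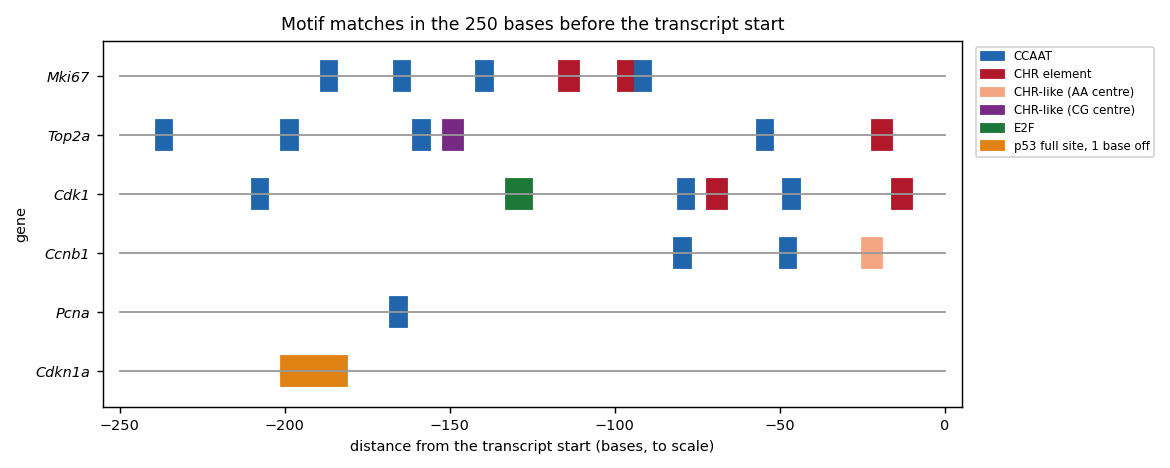
Positions of the searched elements in the 250 bases before the RefSeq start of 6 genes, in bases before the start (horizontal), with 1 row per gene and 1 colour per element. Matches to TTTGAA or its relatives are drawn for Mki67, Top2a, Cdk1 and Ccnb1, and the p53 match only for Cdkn1a.

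The joint effect of both agents on the cycle genes was read from the combination against vehicle. Mki67, Top2a, Cdk1 and Ccnb1 rose, by 0.51 to 0.85 on the log2 scale, and mean RPM was 2.16 to 2.62 times that of vehicle. RPM is scaled by depth alone. The ratios from limma-voom on the recovered reads, scaled by size factor, were smaller, at 1.85 to 2.29. Ccnd1 fell by 0.47 on the log2 scale. Pcna and Cdkn1a did not pass the test. Of the 6 genes tested, 4 were called higher and 1 lower (limma, Benjamini-Hochberg adjusted p under 0.05), against 18.4% and 17.4% of all genes tested, or 35.8% in both directions. Their median log2 fold change was 0.52, against -0.013 over all genes tested.

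Mki67, which encodes the Ki-67 protein found in cycling but not in resting cells, had 25 to 120 reads in the combination (median 76.5), 14 to 80 with L-NAME (median 42.5), 20 to 83 with anti-Fx1A (median 46.5) and 17 to 56 with vehicle (median 26). On the log2 scale the lowest, median and highest values were 5.84, 6.82 and 7.15 in the combination, 5.53, 6.33 and 6.65 with L-NAME, 5.69, 6.35 and 6.88 with anti-Fx1A, and 5.75, 5.97 and 6.46 with vehicle. The groups overlapped, but 7 of 10 animals of the combination, 2 of 10 with L-NAME and 5 of 10 with anti-Fx1A lay above the highest vehicle animal. Those of anti-Fx1A were animals 9 to 12 and 15. Animals 9 to 12 stood apart from the rest of their group, with 4434855 to 5228067 reads, against 6454754 to 7119831 in animals 13 to 18, and with a lower share of reads in the 10 most abundant genes. Within that group Mki67 had an r of -0.726 with this share (permutation p = 0.0234) and -0.746 with depth (permutation p = 0.0252), and the part of either in the Mki67 values was not tested. The combination averaged 6.64 ± 0.45 and vehicle 6.04 ± 0.25 (SD, n = 10 and 8), a log2 fold change of 0.60 with a standard error of 0.17 (limma, adjusted p = 0.00567).

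Top2a encodes DNA topoisomerase II alpha, which untangles sister chromatids before they part. Its log2 values were 7.55, 6.52, 8.02, 7.21, 7.09, 6.97, 7.84, 6.32, 7.40 and 6.60 in animals 29 to 38 of the combination. The lowest, median and highest values were 5.72, 6.58 and 7.22 with L-NAME, 5.996, 6.58 and 7.16 with anti-Fx1A, and 5.89, 6.23 and 7.02 with vehicle. Every animal of the combination lay above the vehicle median, and 6 lay above the highest vehicle animal, against 2 with L-NAME and 1 with anti-Fx1A. Top2a had the largest fold change of the 7 genes, 0.85 with a standard error of 0.21 (limma, adjusted p = 0.00172). In reads, the medians were 113 in the combination, 58.5 with L-NAME, 58 with anti-Fx1A and 34.5 with vehicle.

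Cdk1, the kinase that drives entry into mitosis, had 18 to 85 reads in the combination (median 44.5), 16 to 64 with L-NAME (median 31), 12 to 69 with anti-Fx1A (median 30) and 10 to 48 with vehicle (median 16). The groups overlapped, and 5 animals of the combination, 2 with L-NAME and 3 with anti-Fx1A lay above every vehicle animal. It averaged 6.26 ± 0.48 in the combination and 5.75 ± 0.31 with vehicle on the log2 scale (SD, n = 10 and 8), a fold change of 0.51 with a standard error of 0.18 (limma, adjusted p = 0.0245). This call was lost without combination animal 31 (adjusted p = 0.0552), without vehicle animal 1 (0.0527) and with limma-voom on the recovered reads (0.0581).

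Ccnb1 encodes cyclin B1, the partner of Cdk1. It had 15 to 87 reads in the combination (median 43.5), 9 to 84 with L-NAME (median 22), 14 to 55 with anti-Fx1A (median 21) and 8 to 30 with vehicle (median 19.5). The animals fell into 2 clusters with a gap of 0.49 on the log2 scale, where the next widest gap between neighbours was 0.15. The upper cluster held 7 animals at 6.47 to 6.77, with 55 to 87 reads: animals 29, 31, 33, 35 and 37 of the combination, animal 25 given L-NAME and animal 10 given anti-Fx1A. The lower cluster held 31 animals at 5.97 or less, with 8 to 33 reads, among them every vehicle animal and the other 5 of the combination at 5.51 to 5.92. The fold change of 0.54, with a standard error of 0.17 (limma, adjusted p = 0.0127), is therefore a mean over 5 high and 5 low animals of the combination. The 5 high animals had odd numbers and the 5 low animals even numbers. Cdk1 split the same way there, at 6.5 to 6.9 in odd and 5.59 to 6.18 in even animals. Top2a did so too, except that animal 32 (7.21) lay above animal 33 (7.09), and Mki67 overlapped. The labels name no factor that alternates with animal number, and the cause was not tested.

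**Figure D2:**
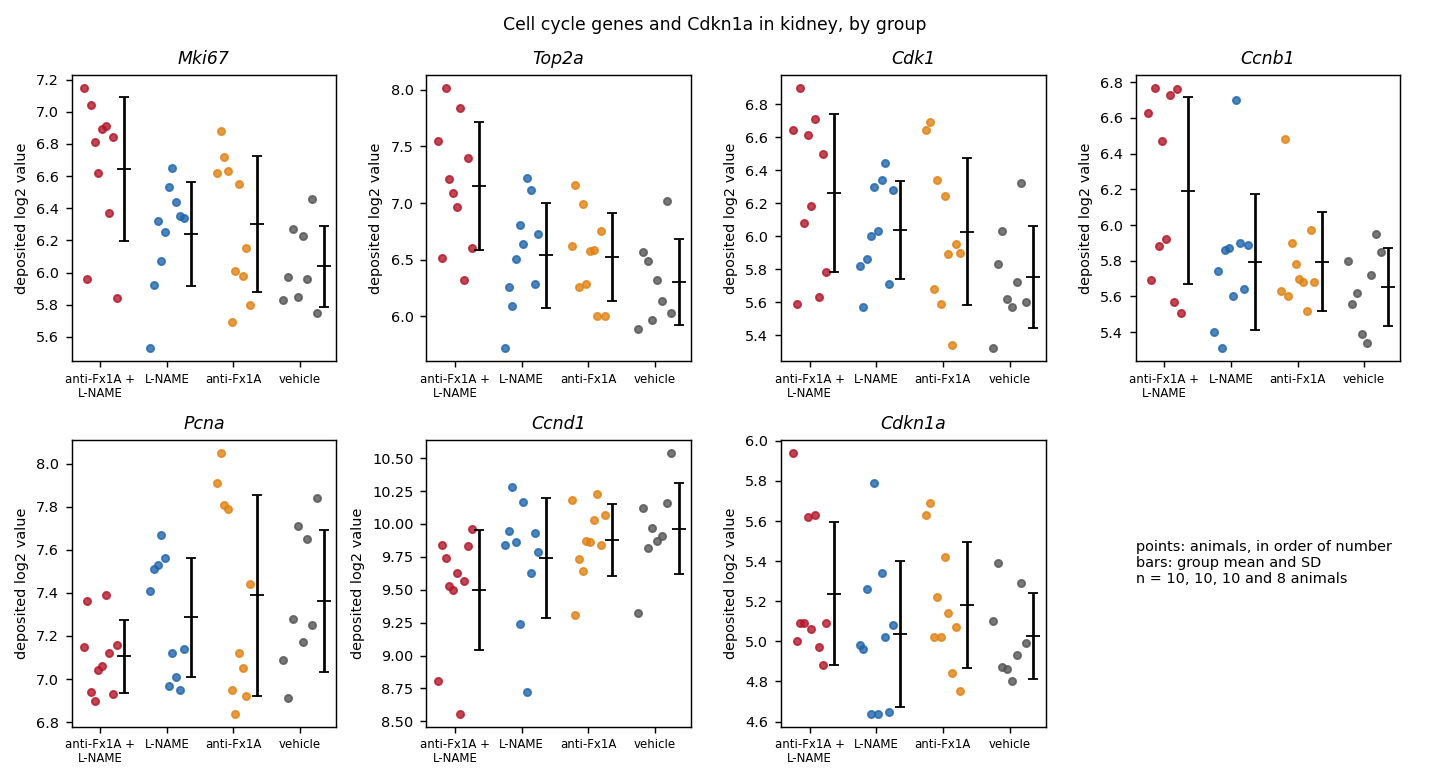
Log2 variance-stabilised level (vertical) of each gene in each animal (points), with the group mean and SD (bar), for the combination, L-NAME, anti-Fx1A and vehicle from left to right. The 4 genes of late cycle reach their highest values in the combination, where Ccnb1 lies in 2 clusters, and Ccnd1 is lowest there.

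Pcna encodes the sliding clamp of DNA replication, which also serves DNA repair. It had 84 to 162 reads in the combination (median 109), 82 to 178 with L-NAME (median 125.5), 84 to 231 with anti-Fx1A (median 129.5) and 80 to 170 with vehicle (median 120). No animal of the combination or of L-NAME lay above the highest vehicle animal, while animals 9 and 10 given anti-Fx1A did, and the groups overlapped. The log2 fold change in the combination was -0.26, with a 95% interval of -0.56 to 0.04 (limma, adjusted p = 0.172), so a rise of the size seen for the 4 genes above lay outside the interval.

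Pcna varied with the composition of the library over all animals, but not in the same way in every group. Over 38 animals its level was lower where the 10 most abundant genes took more of the reads (Pearson's r -0.501, Spearman's rho -0.458, adjusted permutation p = 0.00903 for r over 14 relations of the genes with depth and this share). Without the 2 animals farthest from the median share r was -0.362, and it was -0.575 after group means were subtracted. It was closest within the anti-Fx1A group (r -0.888, permutation p = 0.00171), where animals 9 to 12 had shares of 18.2 to 25.7% and Pcna at 7.79 to 8.05, and animals 13 to 18 had shares of 30.1 to 38.4% and Pcna at 6.84 to 7.44. In the other groups r was -0.343 in the combination, -0.399 with L-NAME and 0.296 with vehicle. Over 38 animals Pcna was also lower in deeper libraries (r -0.556, rho -0.481, adjusted permutation p = 0.00546), with an r of -0.479 without the 2 animals farthest from the median depth. This too was closest within the anti-Fx1A group (r -0.875, permutation p = 0.00394). For the other groups r with depth was -0.357 with L-NAME, -0.3945 with vehicle and, with the opposite sign, 0.373 in the combination. With the share as a covariate, Pcna was lower in the combination than with vehicle by a log2 fold change of -0.31 (limma, adjusted p = 0.0437) and the 5 other calls stayed.

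Ccnd1 encodes cyclin D1, which with its kinases drives the cell through G1. Its log2 values were 8.81, 9.84, 9.74, 9.53, 9.50, 9.63, 8.56, 9.57, 9.83 and 9.96 in animals 29 to 38 of the combination. The lowest, median and highest values were 8.72, 9.85 and 10.28 with L-NAME, 9.31, 9.86 and 10.23 with anti-Fx1A, and 9.32, 9.94 and 10.54 with vehicle. Animals 29 and 35 of the combination, 23 and 25 given L-NAME and 10 given anti-Fx1A lay below every vehicle animal, and none lay above the highest. The fold change in the combination was -0.47 with a standard error of 0.18 (limma, adjusted p = 0.0376). The call was lost without combination animal 29 (adjusted p = 0.0822) or 35 (0.0901), without vehicle animal 2 (0.0616), 4 (0.0529), 7 (0.0652) or 8 (0.0976), and with no limit on low values (0.0576). Ccnd1 was higher where the 10 most abundant genes took more of the reads (r 0.472, rho 0.401, adjusted permutation p = 0.0104), and without the 2 animals farthest from the median share r was 0.462.

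Cdkn1a had few reads: 3 to 32 in the combination (median 6), 1 to 27 with L-NAME (median 4.5), 2 to 20 with anti-Fx1A (median 6.5) and 2 to 11 with vehicle (median 4). In animals 29 to 38 of the combination the reads were 32, 5, 6, 6, 20, 5, 22, 5, 3 and 6. Animals 29, 33 and 35 of the combination, 23 given L-NAME, and 9, 10 and 14 given anti-Fx1A lay above every vehicle animal, and no other animal did, so the groups overlapped. The log2 fold change in the combination was 0.21, with a 95% interval of -0.09 to 0.51 (limma with no limit on low values, adjusted p = 0.367, where 19.9% of 22198 genes were called). This scale is compressed at so few reads: mean RPM was 1.77 ± 1.58 in the combination and 0.899 ± 0.570 with vehicle (SD, n = 10 and 8), a ratio of 1.97, and limma-voom on the recovered reads gave a log2 fold change of 0.64 with a standard error of 0.49 (adjusted p = 0.408). On the deposited scale the log2 fold change with L-NAME alone was 0.0048 (limma with no limit on low values, adjusted p = 1, 6.6% of genes called), and with anti-Fx1A alone 0.15 (adjusted p = 0.769, 0.536% called).

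**Figure D3:**
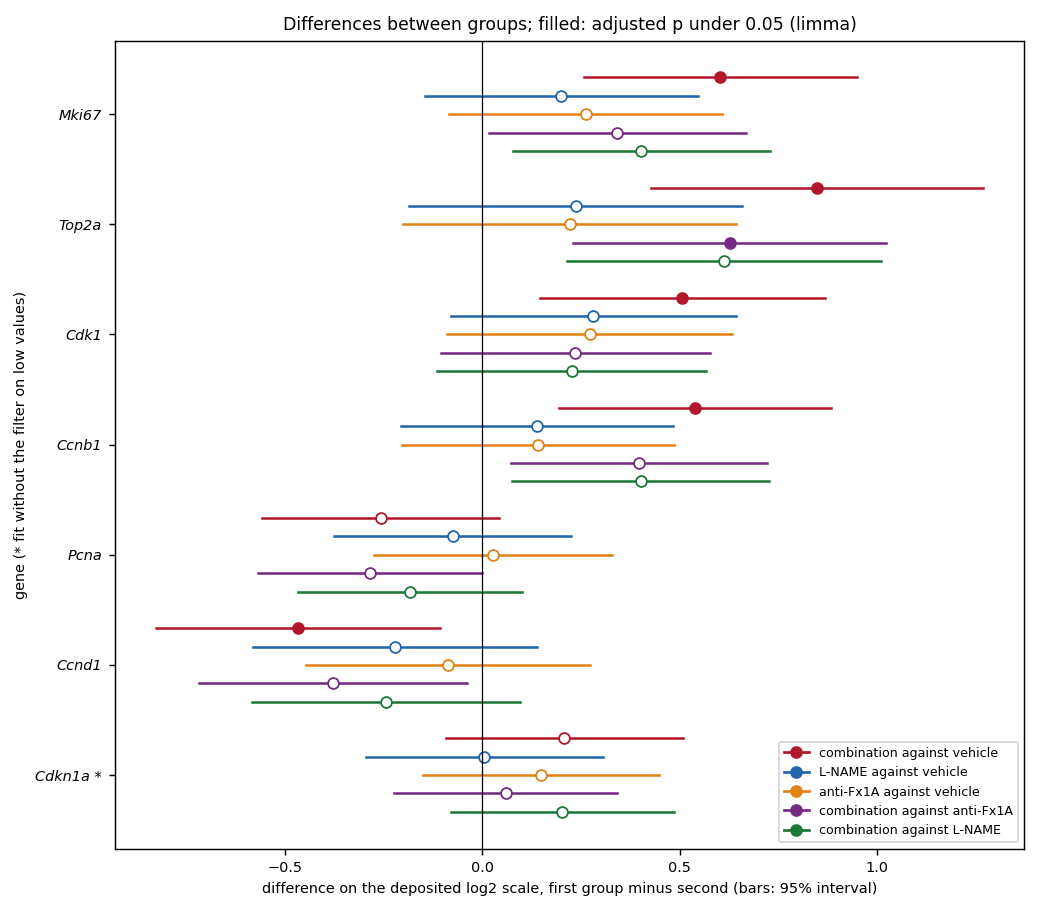
Log2 fold change with its 95% interval (horizontal) for each gene, for the combination, L-NAME and anti-Fx1A each against vehicle and for the combination against each agent alone, with filled points for an adjusted p under 0.05 (limma). In the combination against vehicle the intervals of Mki67, Top2a, Cdk1 and Ccnb1 lie above 0 and that of Ccnd1 below 0, while for the single agents against vehicle every interval crosses 0.

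The single agents were set against vehicle in turn. With L-NAME, 0 of the 6 genes were called (limma), where 14.1% of all genes tested were, and 0 passed an unadjusted p under 0.05 or limma-voom. Of all 12599 genes tested, 3622 had an unadjusted p under 0.05 (limma) and 1708 passed limma-voom. The log2 fold changes were 0.20 for Mki67, 0.24 for Top2a, 0.28 for Cdk1 and 0.14 for Ccnb1, with adjusted p of 0.307 to 0.627 (limma). They were -0.075 for Pcna (adjusted p = 0.775, limma) and -0.22 for Ccnd1 (adjusted p = 0.427, limma). With anti-Fx1A, 0 of the 6 were called (limma), where 1.1% of all genes tested were, and again 0 passed an unadjusted p under 0.05 or limma-voom. Here 1837 of the genes tested had an unadjusted p under 0.05 (limma) and 115 passed limma-voom. The fold changes were 0.26 for Mki67, 0.22 for Top2a, 0.27 for Cdk1, 0.14 for Ccnb1, 0.027 for Pcna and -0.088 for Ccnd1, with adjusted p of 0.523 to 0.964 (limma). Both comparisons share the vehicle animals with the one above.

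The combination was also compared with each agent alone. Against anti-Fx1A, added L-NAME and the lower antiserum dose (2.0 against 2.5 mL/kg) cannot be told apart. Against anti-Fx1A, 1 of the 6 genes was called (limma), where 19.3% of all genes tested were. This was Top2a, at 7.15 ± 0.56 in the combination and 6.52 ± 0.39 with anti-Fx1A (SD, n = 10 each), a log2 fold change of 0.63 with a standard error of 0.20 (limma, adjusted p = 0.0242). The call was lost without combination animal 31 (adjusted p = 0.0561) or 35 (0.0532). Ccnb1 (0.40) and Mki67 (0.34) did not pass (limma, adjusted p = 0.0743 and 0.126). An unadjusted p under 0.05 was reached by 5 of the 6, and by 4326 of all 12599 genes tested (limma). Ccnb1 passed without anti-Fx1A animal 10 (adjusted p = 0.0285), which is in its upper cluster, and without combination animal 30 (0.0467), 36 (0.0367) or 38 (0.0317), and Mki67 without 38 (0.0443). Ccnd1, at -0.38 (limma, adjusted p = 0.103), passed as lower in the combination without vehicle animal 1, L-NAME animal 25 and anti-Fx1A animal 10, the 3 libraries of lowest array weight (-0.44, adjusted p = 0.0189). Pcna, at -0.28 (limma, adjusted p = 0.144), passed as lower with the read share as a covariate (-0.32, adjusted p = 0.0428).

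Against L-NAME, 0 of the 6 genes were called (limma), where 1.2% of all genes tested were, with 3 at an unadjusted p under 0.05 and 0 by limma-voom. Of all 12599 genes tested, 1968 had an unadjusted p under 0.05 (limma) and 129 passed limma-voom. Top2a differed most, with a log2 fold change of 0.61 (limma, adjusted p = 0.108). It passed without L-NAME animal 25 (0.69, adjusted p = 0.0357) and without combination animal 36 (0.70, adjusted p = 0.0482). Animal 25 lay highest in its group for Top2a itself (7.22) and for Ccnb1, and low for Ccnd1. Animal 36 lay lowest in its group for Top2a (6.32), so leaving out either animal widens the difference. Ccnb1 passed without animal 25 as well (adjusted p = 0.0438), against 0.213 with it (limma). Whether the effect of L-NAME differed with and without anti-Fx1A was tested by the interaction, which also holds the lower antiserum dose of the combination. The interaction called 0 of the 6 genes and 0 of all genes tested (0%, limma), with 1102 genes at an unadjusted p under 0.05 and 0 by limma-voom. For Top2a it was 0.39, with a 95% interval of -0.19 to 0.97 (limma, lowest adjusted p of the 6 genes 0.714). L-NAME against anti-Fx1A called 0 of the 6 (limma, lowest adjusted p 0.802), where 0.381% of all genes tested were called, with 0 of the 6 at an unadjusted p under 0.05 or by limma-voom. For all genes tested these counts were 1389 (limma) and 49.

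Next, it was asked whether the genes varied together over the animals. Because Ccnb1 lay in 2 clusters, no value over all animals is given for it. Of the 15 pairs of the other 6 genes, 10 passed (permutation test, adjusted over 21 pairs), and the 5 with Pcna did not. The share of passing pairs among all genes tested was not computed, so whether this count is unusual is not known. The closest of the 15 pairs were Top2a with Cdk1 (r 0.858, rho 0.851) and Mki67 with Top2a (r 0.822, rho 0.798), each at an adjusted permutation p of 3.5e-05 from the smallest p that 100000 permutations can give. Without the 2 animals farthest from the median of the gene named first, r was 0.821 and 0.786. After group means were subtracted it was 0.855 and 0.757, so the relation was also present among animals given the same treatment. Pcna with Mki67 had an r of -0.393 in the combination, -0.586 with L-NAME, 0.772 with anti-Fx1A (permutation p = 0.015) and -0.417 with vehicle. In the anti-Fx1A group, animals 9 to 12 had Mki67 at 6.62 to 6.88 and Pcna at 7.79 to 8.05. Animals 13 to 18, with higher shares of reads in the 10 most abundant genes, had 5.69 to 6.55 and 6.84 to 7.44. The part of library composition in this r was not tested. The L-NAME group also split by animal number, without overlap for either gene. Animals 19 to 23 had Mki67 at 5.53 to 6.32 and Pcna at 7.41 to 7.67. Animals 24 to 28 had Mki67 at 6.34 to 6.65 and Pcna at 6.95 to 7.14. The part of animal order in the r of the L-NAME group was not tested. All values share the scaling of their library.

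Ccnb1 was related to Top2a within the 31 animals of its lower cluster (r 0.607, rho 0.597, permutation p = 0.00028, adjusted p = 0.00168 over 6 relations). It was also related to Cdk1 there (r 0.429, rho 0.469, adjusted permutation p = 0.0479). The other 4 relations there did not pass (adjusted permutation p of 0.131 to 0.621), with r of 0.271 for Mki67, -0.336 for Ccnd1, 0.190 for Cdkn1a and -0.093 for Pcna. Within the 7 animals of the upper cluster no relation passed (lowest adjusted exact permutation p = 0.358), and r with Top2a was 0.729. The clusters were cut on Ccnb1 itself, so its range within each is narrow and r is lowered. The relations that did not pass are therefore not shown to be absent.

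**Figure D4:**
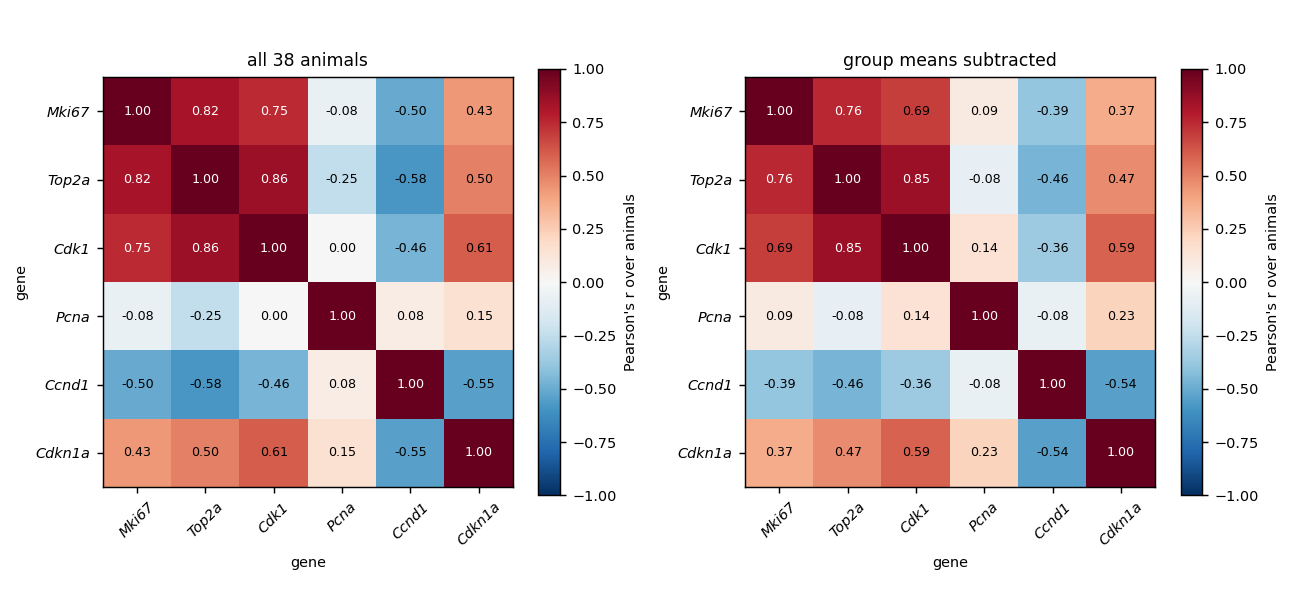
Pearson's r between pairs of genes over 38 animals (left), and after subtracting group means (right), in a colour scale from -1 to 1, without Ccnb1. Mki67, Top2a and Cdk1 are related to each other, Ccnd1 runs opposite to them and to Cdkn1a, and no pair with Pcna passed the test.

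Ccnd1 ran opposite to the late cycle genes over the animals, with r of -0.503 for Mki67 (rho -0.504), -0.580 for Top2a (rho -0.545) and -0.464 for Cdk1 (rho -0.460), at adjusted permutation p of 0.00035 to 0.00467. Without the 2 animals farthest from the median of the cycle gene r was -0.449, -0.549 and -0.418, and after group means were subtracted it was -0.388, -0.464 and -0.364. Among vehicle animals alone these were -0.014, 0.293 and 0.387, so the relation was not seen there with 8 animals. Cdkn1a was higher where the late cycle genes were higher, with r of 0.430 for Mki67 (rho 0.414), 0.501 for Top2a (rho 0.547) and 0.609 for Cdk1 (rho 0.574), at adjusted permutation p of 0.00021 to 0.00973. Without the 2 animals farthest from the median of the cycle gene r was 0.336, 0.514 and 0.627. Cdk1 and Cdkn1a were closest with anti-Fx1A alone (r 0.880, permutation p = 0.00098). Animals 9 and 10 were the highest of that group for both, with Cdk1 at 6.64 and 6.69 and Cdkn1a at 15 and 20 reads. The r of the group without them was not computed. Cdkn1a and Ccnd1 ran opposite to each other (r -0.546, rho -0.415, adjusted permutation p = 0.000819). Without animals 25 and 35 r was -0.504, and within groups it was -0.822 in the combination (permutation p = 0.00962), -0.589 with L-NAME, -0.445 with anti-Fx1A and 0.176 with vehicle. Animals 29 and 35 had both the lowest Ccnd1 and the highest Cdkn1a reads of the combination, and were among the 5 with high Ccnb1. Mki67 (r -0.467, rho -0.459, adjusted permutation p = 0.0104) and Cdkn1a (r -0.437, rho -0.312, adjusted permutation p = 0.0161) were also lower where the 10 most abundant genes took more of the reads, with r of -0.399 and -0.407 without the 2 animals farthest from the median share. Within the combination, r with this share was 0.741 for Ccnd1 (permutation p = 0.0133) and -0.6335 for Cdkn1a (permutation p = 0.0487). In the other groups it was 0.142 to 0.492 for Ccnd1 and -0.474 to 0.207 for Cdkn1a. The part of this share in the relations between genes was not tested.

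**Figure D5:**
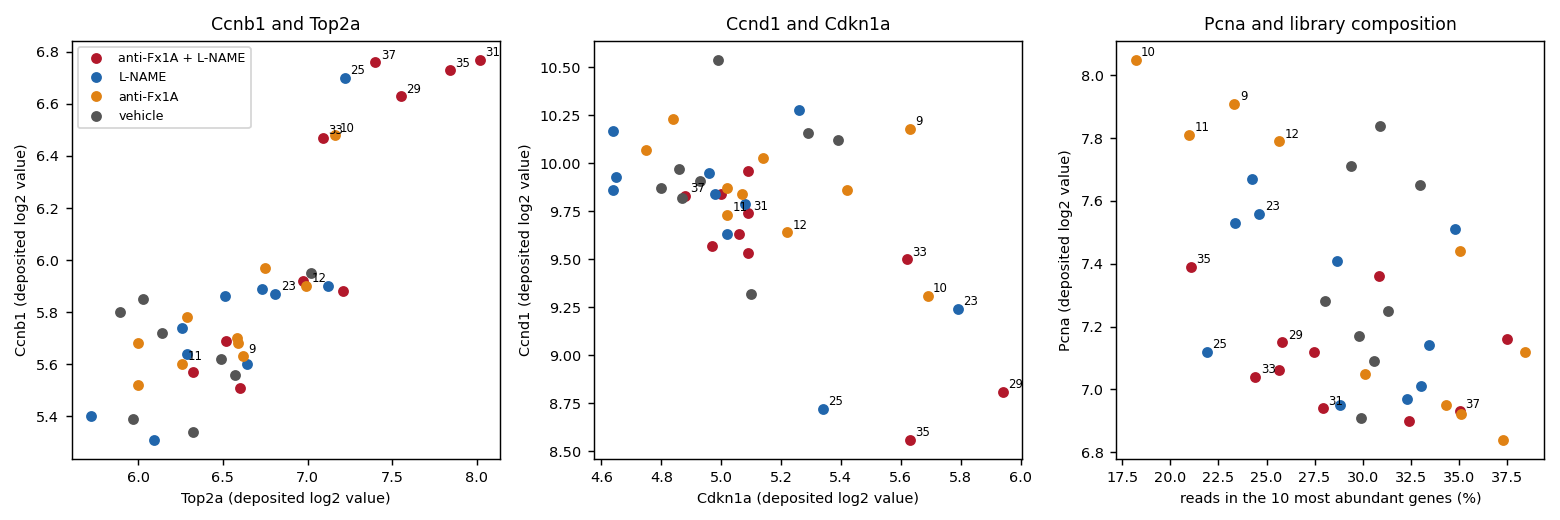
Log2 levels in each animal (points, coloured by group) of Ccnb1 against Top2a (left), Ccnd1 against Cdkn1a (middle) and Pcna against the percent of reads in the 10 most abundant genes (right), with some of the animals named in the text numbered. The 7 animals with Ccnb1 at 6.47 or more stand apart from the other 31, animals 29 and 35 of the combination join low Ccnd1 with high Cdkn1a, and animals 9 to 12 given anti-Fx1A join high Pcna with a low share.

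The genes whose levels over the 38 animals were most like the mean of Mki67, Top2a, Cdk1 and Ccnb1 are given by identifier, since no table used here pairs identifiers with names. ENSRNOG00000003388 had a Pearson's r of 0.926 with that mean and averaged 6.87 in the combination, 6.42 with L-NAME, 6.42 with anti-Fx1A and 6.11 with vehicle (log2 levels). ENSRNOG00000005871 had an r of 0.893 and averaged 7.14 in the combination, 6.55 with L-NAME, 6.44 with anti-Fx1A and 6.17 with vehicle. Most like Cdkn1a were ENSRNOG00000003546 (r 0.850), which averaged 7.09 in the combination, 6.69 with L-NAME, 6.85 with anti-Fx1A and 6.48 with vehicle, and ENSRNOG00000019357 (r 0.810). These r values are the highest among the genes tested other than the 7 genes themselves, and carry no test.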

How the data were processed

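Libraries of kidney RNA from 38 rats were made with the QuantSeq 3′ FWD kit, per the labels' protocols, with 500 ng of RNA each. Tools named in the submitters' processing notes, without their roles, are DESeq2 (no version), edgeR 3.40.2 and Salmon 1.4.0. For the genome build and annotation, a statement was not given in the sources used here. Log2 variance-stabilised values of 30207 genes were deposited by the authors, with 2 further rows of sample and group names that were left out, and columns of another series numbered 0. Inverting the stabilising curve from its lowest value gave whole reads, within 0.05 of a read, for 100% of values up to 10000 reads in every library. Depth was 4120902 to 7728848 reads per library, and nothing in the labels says how the animals were housed or paired, so p-values measure the spread between these animals.

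Genes with a mean over all animals of 5.32 or more, 1 log2 unit over the lowest value, were tested, 12599 in all. The 4 group means were fitted with limma 3.58.1 in R 4.3.3 (trend and robust estimation), 7 comparisons were drawn and p-values were adjusted by Benjamini-Hochberg over all genes tested, with a threshold of 0.05. Cdkn1a averaged less and was read from a fit of all 22198 genes with a read. Fold changes on this scale are understated for genes with few reads. Tested on simulated data with 200 changed genes among the 12599, the fit called 75% of genes changed by 0.5 log2 units and 97.2% of those changed by 1 in the combination against vehicle. Relations over animals were tested by two-sided permutation (100000 resamples, or exact for 8 animals or fewer).

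The genes, lists and tests were chosen with earlier results of these data known. The genes named were the 7 genes in every comparison, and by identifier the 2 genes most like the mean of Mki67, Top2a, Cdk1 and Ccnb1 and the 2 most like Cdkn1a. The 2 clusters of Ccnb1 were defined after its values were seen. The reference tables used here pair 0 of the 30207 identifiers with a name, so the planned lists of other cell cycle genes, p53 targets and kidney cell markers were not run, and the kidney label was not checked by markers. Alternatives were median-centred libraries, no filter on low values and one at 2 log2 units, no trend or robust estimation, fitting the 2 compared groups on their own, array weights, limma-voom on the recovered reads and each animal left out. Added after the data were seen were a fit without the 3 libraries of low array weight, the read share of the top 10 genes as covariate, and log2 of RPM plus 1 for relations.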

Additional observations from a re-analysis of the deposited data

Results flagged for a closer look

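Ccnb1 in animal 25 given L-NAME was 6.70 on the log2 scale, against 5.31 to 5.90 in the other 9 animals of its group, a gap of 0.575 of the group's range. Ccnb1 in animal 10 given anti-Fx1A was 6.48, against 5.52 to 5.97 in the other 9 of its group, a gap of 0.530 of the range. Both gaps passed Dixon's limit of 0.466 for 10 animals, which chance passes in about 1 of 20 groups, and 28 groups of values were looked at. These libraries were also among the 3 with the lowest array weights (0.294 for animal 25 and 0.300 for animal 10, with 0.279 for vehicle animal 1). Whether the weights and the Ccnb1 values have a common source was not tested.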

How the results depend on the processing

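Mki67, Top2a and Ccnb1 stayed called in the combination against vehicle under all alternatives that tested them, with adjusted p (limma) of 0.00117 to 0.0189, 0.000528 to 0.00531 and 0.00361 to 0.0313. Cdk1 ranged over 0.00999 to 0.0581 and Ccnd1 over 0.00339 to 0.0976. All 5 calls of that comparison stayed without the 3 libraries of low weight. With the filter at 2 log2 units 3 of the genes were called in that comparison, in place of 5. Cdk1 and Ccnb1 lay under that limit and were not tested, and Mki67, Top2a and Ccnd1 stayed called. In the combination against anti-Fx1A, 3 genes were called with array weights (Top2a, Mki67 and Ccnb1 higher), 3 without the 3 libraries of low weight (Top2a and Ccnb1 higher, Ccnd1 lower) and 2 with the covariate (Top2a higher, Pcna lower), in place of 1, and 0 to 3 when an animal was left out. Of all 12599 genes tested, that comparison called 2428, and 3492 without the 3 libraries. With an animal left out it called 1668 to 2816 of all genes. Against L-NAME, 2 were called with array weights and 2 without the 3 libraries, in place of 0, and 0 to 2 when an animal was left out: Top2a (0.69 without the 3 libraries, adjusted p = 0.0222) and Ccnb1 (0.50, adjusted p = 0.0239). The cause was not tested.

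Over all genes, anti-Fx1A against vehicle called 139 genes, 624 with array weights, 50 with only the 2 groups, 259 with the covariate and 85 to 294 with an animal left out. The combination against L-NAME called 151, 95 without a filter, 990 with array weights, 1155 without the 3 libraries, 338 with the covariate and 47 to 640 with an animal left out. L-NAME against anti-Fx1A called 48, 27 without a filter, 22 with only the 2 groups, 85 with the covariate and 20 to 61 with an animal left out. The interaction called 0, 3 with the filter at 2, 37 with array weights, 41 without the 3 libraries, 4 with the covariate and 0 to 15 with an animal left out.

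Signs turned only for differences near 0 that did not pass. Cdkn1a with L-NAME against vehicle was -0.034 with median-centred libraries, -0.0044 with array weights, -0.12 with voom, -0.019 without the 3 libraries and -0.047 with the covariate, and -0.080 to 0.056 with an animal left out. Pcna with anti-Fx1A against vehicle was -0.14 with array weights, -0.085 without the 3 libraries and -0.047 to 0.095 with an animal left out. The Cdk1 interaction was 0.080 with array weights, 0.12 without the 3 libraries and -0.13 to 0.028 with an animal left out, and that of Cdkn1a -0.024 to 0.14. Cdkn1a in the combination against anti-Fx1A was -0.020 to 0.12. The r of Mki67 and Pcna was 0.0919 with group means subtracted and 0.128 on log2 RPM, and that of Pcna and Ccnd1 -0.0755 with group means subtracted. No paired analysis was possible because the groups share no animal numbers and the labels give no pairing. Cdkn1a had the fewest reads, 1 to 32 per library, and whether depth or the spread between animals limits its test was not tested.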
